A study of Mus musculus with 9 samples.

Results

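Myeloid C-type lectin receptors are membrane proteins with which macrophages, neutrophils and dendritic cells bind sugars and lipids of fungi and mycobacteria, and products of dying cells. Described here are 7 such receptor genes, Clec4e, Clec4d, Clec4n, Clec5a, Clec7a, Clec4a2 and Clec12a, together with Card9, the adaptor through which the activating receptors signal. They were chosen by gene symbol, without use of their values: all 8 symbols were found, each in 1 row, among 55335 rows of the expression table, and all 8 were among the 11721 genes that passed the filter for testing.

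The data were RNA-seq of mouse peritoneal macrophages, a study whose title concerns alcohol, macrophage polarization in colitis and the channel TRPV1. All 9 libraries came from cells stimulated with LPS, the bacterial cell wall component that activates Toll-like receptor 4, at 1 µg/mL for 4 h after 1 h of culture in RPMI 1640. In 3 libraries the cells also received 5% EtOH (LPS+EtOH), in 3 they also received 100 µM CPZ, a compound that the labels give only by this abbreviation (LPS+CPZ), and 3 had LPS alone (LPS). The protocol speaks of biological replicates, and each library is a pool of equal amounts of 3 RNA samples; whether pools of a group share animals or cultures is not stated, so p-values here measure only the spread between pools. Cells without LPS, and cells given EtOH or CPZ without LPS, were not analysed here, so levels are levels under LPS.

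An activating receptor of this class signals through a tyrosine motif called an ITAM, carried by the receptor itself or by a partner chain, either the Fc receptor γ chain (Fcer1g) or DAP12 (Tyrobp). The motif recruits the kinase SYK, and SYK acts through protein kinase Cδ on the complex of CARD9, BCL10 and MALT1, which activates NF-kB and cytokine genes. Inhibitory receptors carry an ITIM motif instead and recruit the phosphatases SHP-1 (Ptpn6) and SHP-2 (Ptpn11).

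Values were FPKM, in which fragment numbers are divided by transcript length and library depth, so levels of different genes can be set side by side, and all values are relative to the other transcripts of the same library. Total FPKM ran from 302126 to 363356 per library, and depth estimated from the steps between low values was 27200000 to 39400000 fragments. The LPS libraries stood apart in one respect: 4 adult globin genes took 16.7, 11.5 and 29.4% of their FPKM, against 0.172 to 0.221% in LPS+EtOH and 0.0452 to 0.0972% in LPS+CPZ. Fewer genes reached 1 FPKM in LPS+EtOH (8024 to 8366) and LPS+CPZ (10135 to 10625) than in LPS (11096 to 11266). In the comparison of LPS+EtOH with LPS, the median tested gene lay at -0.82 on the log2 scale, in that of LPS+CPZ with LPS at -0.33, and in that of LPS+CPZ with LPS+EtOH at 0.55, and each change below is to be read against that median. Scaling each library by median ratios instead brought these medians to -0.08, -0.08 and 0.08.

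The labelled cell type was checked against defining markers. Adgre1, which encodes the macrophage protein F4/80, averaged 89.0 ± 9.48 FPKM in LPS+EtOH, 88.5 ± 14.0 in LPS+CPZ and 141 ± 8.01 in LPS, and Csf1r, the receptor of macrophage colony-stimulating factor, averaged 19.4 ± 5.79 FPKM in LPS+EtOH, 36.9 ± 8.90 in LPS+CPZ and 24.9 ± 4.93 in LPS (SD, n = 3 each). The summed FPKM of 10 macrophage genes ran from 2990 to 3268 in LPS+EtOH, from 1195 to 1398 in LPS+CPZ and from 1740 to 2244 in LPS. Markers of other cells were also present. The summed FPKM of 15 neutrophil genes ran from 47198 to 52005 in LPS+EtOH, from 7613 to 8399 in LPS+CPZ and from 4526 to 6313 in LPS. Of 13 tested, 12 were higher and 0 lower in LPS+EtOH than in LPS (limma, also 0 at an unadjusted p of 0.05). In LPS+CPZ 5 were higher and 3 lower than in LPS, and 1 was higher and 11 lower than in LPS+EtOH. Of all tested genes 19.0% were higher and 64.6% lower in LPS+EtOH than in LPS. For LPS+CPZ these shares were 20.7% and 48.4% against LPS, and 61.4% and 15.2% against LPS+EtOH. The neutrophil gene Ly6g averaged 156 ± 12.3 FPKM in LPS+EtOH, 274 ± 31.1 in LPS+CPZ and 16.9 ± 4.79 in LPS. Ly6g was the 1 neutrophil gene called higher in LPS+CPZ than in LPS+EtOH, by a log2 change of 0.81. That call was lost with median-ratio scaling. S100a8, a calcium-binding protein abundant in neutrophils, averaged 9141 ± 648 FPKM in LPS+EtOH, 2752 ± 149.9 in LPS+CPZ and 995 ± 138 in LPS. The neutrophil granule genes Elane and Mpo were at most 0.0447 FPKM in any library. Other granule genes of the list were present. Ngp averaged 568 ± 93.2 FPKM in LPS+EtOH, 50.4 ± 2.12 in LPS+CPZ and 47.1 ± 72.7 in LPS, where replicate 3 held 131. Camp averaged 25.1 FPKM in LPS+EtOH, 6.62 in LPS+CPZ and 5.03 in LPS, and Ltf 12.3, 1.40 and 4.32. The summed FPKM of 11 B cell genes ran from 151 to 206 in LPS+EtOH, from 1235 to 1453 in LPS+CPZ and from 1580 to 2263 in LPS. Neutrophils also express several of the receptors described here. In bulk RNA, fewer cells of a type and less RNA per cell cannot be told apart, and the part of these other cells in the results below was not tested.

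**Figure D1:**
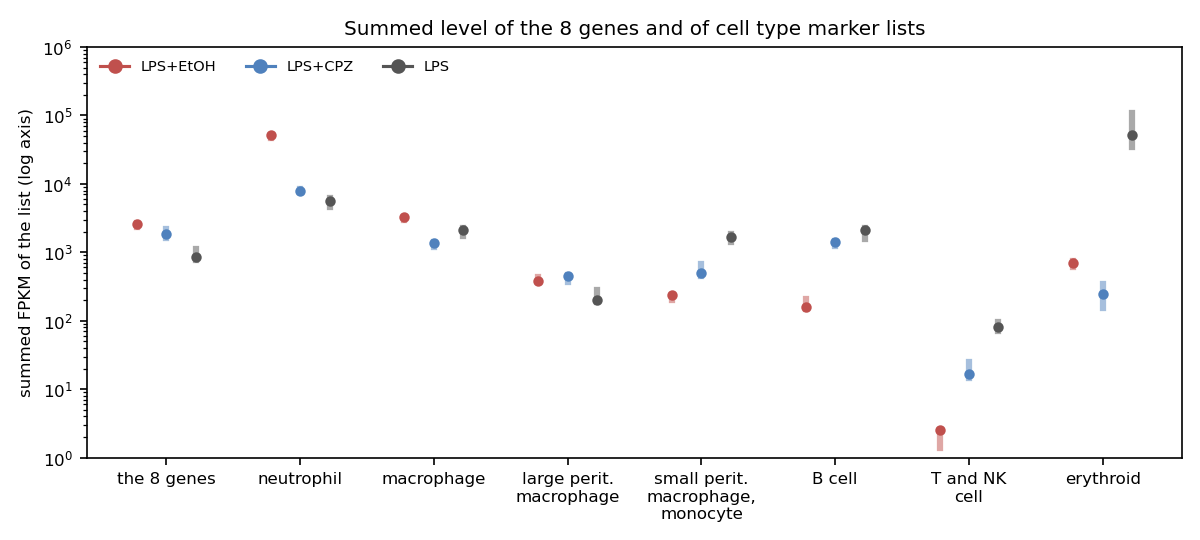
Summed FPKM of the 8 genes and of marker lists for cell types a peritoneal preparation can hold, on a log axis; for each list LPS+EtOH, LPS+CPZ and LPS stand side by side, with a point at the median library and a bar from the lowest to the highest (n = 3). The neutrophil sum is 47198 to 52005 FPKM in LPS+EtOH, above every LPS+CPZ and LPS library, and the erythroid sum is 34791 to 107458 FPKM in LPS, above every library of the other groups. Single genes carry much of some sums. S100a9 averaged 33420 FPKM in LPS+EtOH. F10, of the large peritoneal macrophage list, averaged 337 FPKM in LPS+EtOH, 383 in LPS+CPZ and 56.2 in LPS. Of 11 tested genes of that list, 2 were higher and 9 lower with EtOH than in LPS (limma), and 1 and 10 with CPZ. The shares over all tested genes were 19.0% and 64.6% with EtOH, and 20.7% and 48.4% with CPZ. Timd4, Alox15 and Vsig4 of that list would not have passed the filter without the LPS libraries, where each was highest. Their lower calls, which enter both counts, are thus partly set by the filter.

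Of the 8 genes, 7 lie on mouse chromosome 6 and Card9 lies on chromosome 2. In the order of the chromosome, Clec5a comes first, Clec4a2 follows farther along, and then come Clec4n, Clec4d and Clec4e, which have no other protein-coding gene between them in GENCODE M21. Clec4b2 is the 1 protein-coding gene between Clec4a2 and Clec4n. Clec12a and Clec7a lie beyond them in a second cluster, with Clec12b, Clec1b, Clec9a and Clec1a between them. Promoter sequences, 250 bases before to 50 bases after the start of transcription, were taken from RefSeq (GRCm38.p6) for 7 of the 8 genes, all but Clec4n. A pair of genes from each cluster is shown because their values under CPZ went opposite ways relative to LPS. The fall of Clec4e was near the threshold and did not pass with median-ratio scaling (-0.16). The pairs are Clec4d at chr6:123261857-123262156 (+ strand) with Clec4e at chr6:123289822-123290121 (- strand), and Clec12a at chr6:129349994-129350293 (+ strand) with Clec7a at chr6:129472730-129473029 (- strand). Capitals mark matches to the motifs searched on both strands.
Clec4d: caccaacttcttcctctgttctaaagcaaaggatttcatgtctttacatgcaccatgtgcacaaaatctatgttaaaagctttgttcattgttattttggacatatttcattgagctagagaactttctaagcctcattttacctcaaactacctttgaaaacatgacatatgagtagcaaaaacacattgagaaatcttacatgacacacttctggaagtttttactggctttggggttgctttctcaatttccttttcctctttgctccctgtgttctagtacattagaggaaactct
Clec4e: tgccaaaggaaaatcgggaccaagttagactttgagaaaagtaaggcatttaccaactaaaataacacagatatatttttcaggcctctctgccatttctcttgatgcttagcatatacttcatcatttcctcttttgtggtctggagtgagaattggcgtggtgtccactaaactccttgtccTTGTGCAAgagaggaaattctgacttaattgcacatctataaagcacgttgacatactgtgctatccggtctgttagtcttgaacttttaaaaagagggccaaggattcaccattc
Clec12a: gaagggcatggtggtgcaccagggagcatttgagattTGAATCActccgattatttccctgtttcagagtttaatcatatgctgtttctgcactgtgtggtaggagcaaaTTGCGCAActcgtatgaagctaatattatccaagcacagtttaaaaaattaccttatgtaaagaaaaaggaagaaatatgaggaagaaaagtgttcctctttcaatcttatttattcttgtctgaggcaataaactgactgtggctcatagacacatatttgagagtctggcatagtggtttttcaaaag
Clec7a: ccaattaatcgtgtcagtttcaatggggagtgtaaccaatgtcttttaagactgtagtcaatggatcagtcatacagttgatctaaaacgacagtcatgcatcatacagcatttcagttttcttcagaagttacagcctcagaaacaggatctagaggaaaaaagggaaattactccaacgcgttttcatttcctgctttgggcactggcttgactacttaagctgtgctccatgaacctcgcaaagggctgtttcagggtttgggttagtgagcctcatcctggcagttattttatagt

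The motifs searched were TTGCNNAA (C/EBP), TGANTCA (AP-1) and GAGGAAGT (PU.1), where N is any base, and an NF-kB motif of GGGA, any base and TTTCC. No match overlapped a match of another motif. A match was found in 3 of the 7 promoters. Clec4e held a C/EBP match on the minus strand at position -66 from the start, and Clec12a held a C/EBP match at -140, which reads alike on both strands, and an AP-1 match at -213. Clec4a2 held an AP-1 match at 32 after the start. Among 27025 mouse promoters of the same length, 10.8% held the C/EBP motif, 7.93% the AP-1 motif, 3.28% the PU.1 motif and 0.385% the NF-kB motif. A match is a string of letters, not a measured site, and these data hold no measurement of binding.

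Clec4d was the most abundant of the 8 transcripts in every library. Its share of the summed FPKM of the 7 receptors was 75.4 ± 2.96% in LPS+EtOH, 75.9 ± 3.44% in LPS+CPZ and 63.0 ± 3.76% in LPS (SD, n = 3 each). After Clec4d, the order of mean FPKM in LPS+EtOH was Clec4e, Clec7a, Clec4n, Clec5a, Clec4a2, Clec12a and Card9, with overlapping libraries between Clec4e and Clec7a and between Clec4a2 and Clec12a. In LPS+CPZ the order after Clec4d was Clec4n, Clec7a, Clec4e, Clec5a, Clec4a2, Card9 and Clec12a, and only the libraries of Clec4n and Clec7a overlapped. In LPS it was Clec4e, Clec4n, Clec7a, Clec5a, Clec4a2, Clec12a and Card9, with overlaps between Clec4n and Clec7a and between Clec4a2 and Clec12a. Clec4e thus stood at rank 2 in LPS+EtOH and LPS and at rank 4 in LPS+CPZ, and Clec12a stood at rank 8, below Card9, in LPS+CPZ alone.

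**Figure D2:**
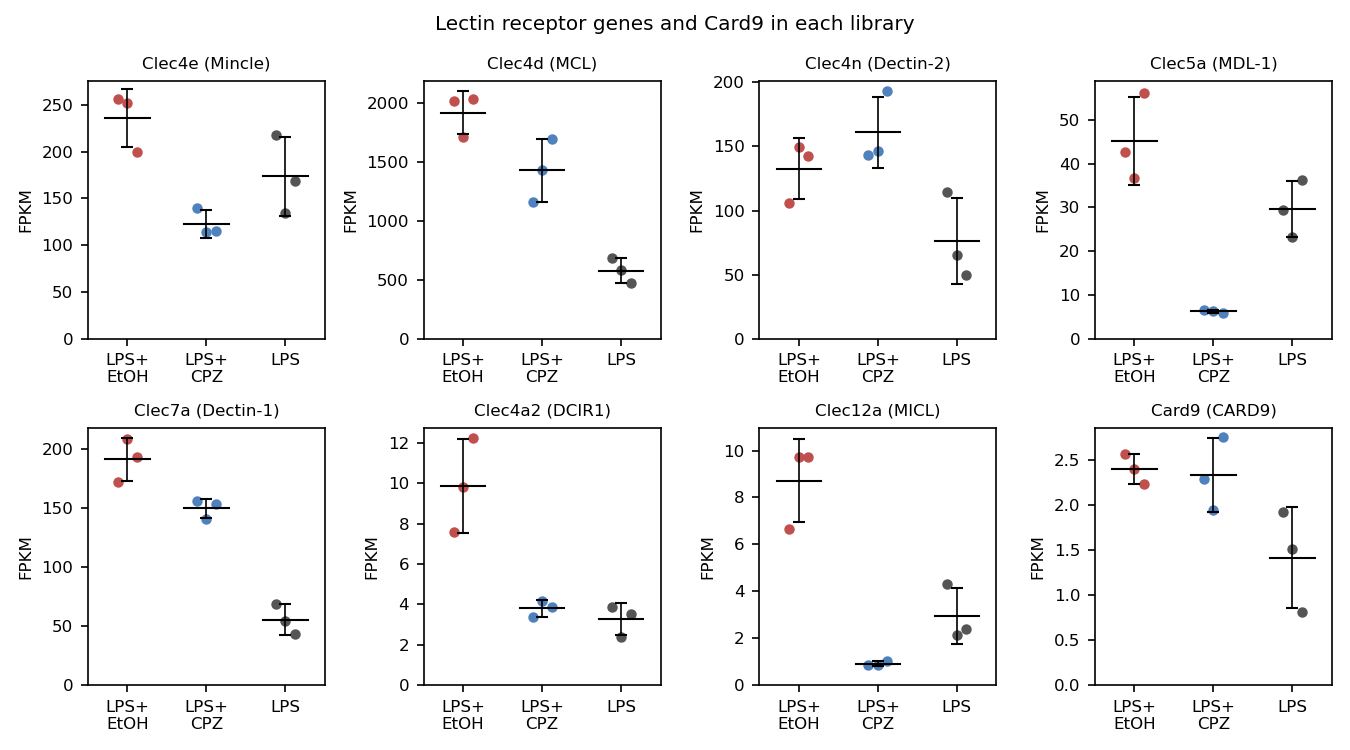
FPKM of each gene in each of the 9 libraries on linear axes starting at 0, by group, with the group mean and SD (n = 3). All LPS+EtOH libraries lie above all LPS libraries for Clec4d, Clec5a, Clec7a, Clec4a2, Clec12a and Card9, and all LPS+CPZ libraries lie below all LPS libraries for Clec5a and Clec12a.

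LPS+EtOH was first compared with LPS alone, which addresses how EtOH changed LPS-stimulated cells. All 8 genes rose with EtOH, by 1.36- to 3.45-fold in mean FPKM. Clec7a, Clec4d, Clec4a2 and Clec12a rose most, and Clec4e least. The count was 8 higher and 0 lower (limma adjusted p at most 0.05; also 0 lower at an unadjusted p of 0.05), against 19.0% of all tested genes called higher and 64.6% called lower (83.6% in either direction). With median-ratio scaling the counts were again 8 and 0, against 37.8% and 42.1% of all genes. Over the 8 genes the log2 change had a median of 1.09, against -0.82 over all tested genes. For 6 of the 8 every LPS+EtOH library lay above every LPS library, as was so for 19.5% of tested genes (65.3% lay below); Clec4e and Clec4n were the exceptions. With the globin genes left out of the scaling, Clec4e (0.15), Clec5a (0.29) and Card9 (0.35) did not pass. Clec4e also did not pass with TPM (0.35) or quantile scaling (0.057).

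LPS+CPZ against LPS alone addresses the same question for CPZ. Clec4d, Clec4n, Clec7a and Card9 rose, and Clec4e, Clec5a and Clec12a fell. Clec5a fell 4.76-fold and Clec12a 3.23-fold in mean FPKM, whereas Clec7a rose 2.70-fold and Clec4d 2.47-fold. The 4 called higher stand against 20.7% of all tested genes, and the 3 called lower against 48.4% (69.2% in either direction). With median-ratio scaling 4 of the 8 were higher and 2 lower, against 27.6% and 34.1% of all genes; Clec4e, at -0.16, did not pass there. Without overlap, 4 of the 8 lay above LPS and 2 below, against 22.3% and 50.7% of tested genes. Over the 8 genes the log2 change had a median of 0.34, against -0.33 over all tested genes. Both comparisons use the same 3 LPS libraries.

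Between LPS+CPZ and LPS+EtOH the difference itself was tested. Clec12a was 9.56-fold lower in LPS+CPZ, Clec5a 7.25-fold, Clec4a2 2.59-fold and Clec4e 1.92-fold lower. These 4 were called lower, against 15.2% of all tested genes, and 0 were called higher (0 also at an unadjusted p of 0.05), against 61.4% (76.6% in either direction). All LPS+CPZ libraries lay below all LPS+EtOH libraries for 6 of the 8, and above for none, against 16.0% and 62.9% of tested genes. Clec4d, Clec4n, Clec7a and Card9 did not pass the test at adjusted p values of 0.0556, 0.362, 0.0775 and 0.847 (limma). With median-ratio scaling 7 of the 8 were called lower, against 31.5% of all tested genes, and 0 higher, against 35.6%.

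**Figure D3:**
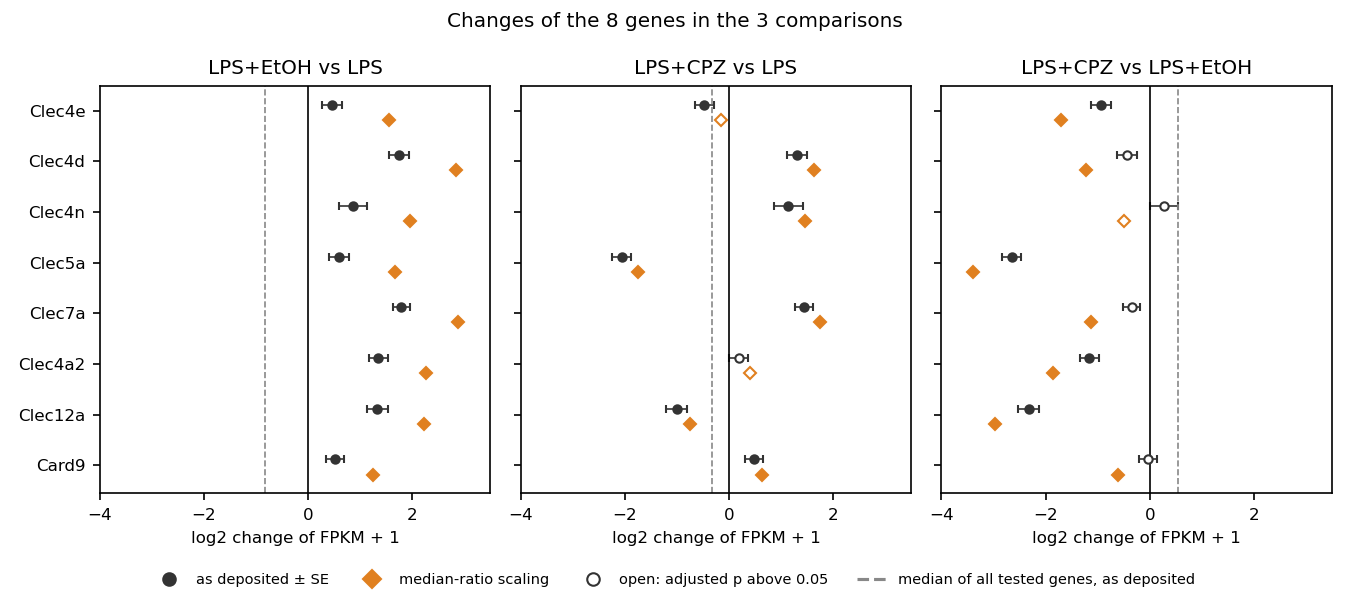
Log2 change of each gene, with its SE, in the 3 comparisons (LPS+EtOH with LPS, LPS+CPZ with LPS, LPS+CPZ with LPS+EtOH), from limma on log2(FPKM + 1) as deposited (circles) and after median-ratio scaling (diamonds); open symbols did not pass the test, and dashed lines give the median of all tested genes as deposited. All 8 genes lie above 0 for LPS+EtOH against LPS with either scaling, and Clec5a (-2.06) and Clec12a (-1.003) lie farthest below 0 for LPS+CPZ against LPS.

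Clec4e encodes Mincle, the receptor of mycobacterial cord factor and of a protein released from dying cells, which signals through the Fc receptor γ chain. It had 256, 252 and 199.8 FPKM in LPS+EtOH, 139.7, 114 and 115 in LPS+CPZ, and 218, 134 and 169 in LPS. The LPS+EtOH libraries lay above all LPS+CPZ libraries, while the LPS libraries overlapped both. Clec4e was higher in LPS+EtOH than in LPS by 0.46 ± 0.19 on the log2(FPKM + 1) scale (SE; limma adjusted p = 0.0393) and lower in LPS+CPZ than in LPS by a log2 change of -0.48 ± 0.19 (limma adjusted p = 0.0417). Both calls were near the threshold, and leaving out any of several single libraries ended them. The call of LPS+EtOH against LPS was lost without LPS+EtOH replicate 1 (0.40) or 2 (0.41), LPS+CPZ replicate 2 or 3 (0.46 each), or LPS replicate 2 (0.29) or 3 (0.45). That of LPS+CPZ against LPS was lost without LPS+EtOH replicate 1 or 2 (-0.48 each), LPS+CPZ replicate 2 (-0.42) or 3 (-0.43), or LPS replicate 1 (-0.30) or 3 (-0.48). The difference between LPS+CPZ and LPS+EtOH, -0.94 ± 0.19 (limma adjusted p = 0.000979), held under every alternative.

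Clec4d encodes MCL, also called Dectin-3, which binds the same cord factor and can pair with Mincle. Its values were 2018, 1709 and 2030 FPKM in LPS+EtOH, 1155, 1432 and 1693 in LPS+CPZ, and 680.2, 579 and 471 in LPS. Every library with EtOH or CPZ lay above every LPS library, and every LPS+CPZ library lay below every LPS+EtOH library. The log2 change was 1.74 ± 0.19 for LPS+EtOH against LPS (limma adjusted p = 7.60e-06) and 1.30 ± 0.19 for LPS+CPZ against LPS (limma adjusted p = 0.000149). LPS+CPZ differed from LPS+EtOH by -0.44 ± 0.19, which did not pass at the settings used (limma adjusted p = 0.0556) and passed with median-ratio scaling (-1.22, adjusted p = 0.000510).

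Clec4n encodes Dectin-2, a receptor of fungal mannans that also uses the Fc receptor γ chain. It had 106, 149.7 and 143 FPKM in LPS+EtOH, 143, 147 and 193 in LPS+CPZ, and 114, 65.0 and 49.7 in LPS. LPS replicate 1, at 114 FPKM, lay above the lowest LPS+EtOH library, and all LPS+CPZ libraries lay above all LPS libraries. Clec4n was higher in LPS+EtOH by 0.86 ± 0.27 (limma adjusted p = 0.0123) and in LPS+CPZ by 1.14 ± 0.27 (limma adjusted p = 0.00343). It was the 1 gene of the 8 with a positive value for LPS+CPZ against LPS+EtOH, 0.28 ± 0.27, and this turned to -0.49 with median-ratio scaling, neither being called.

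Clec5a encodes MDL-1, which signals through DAP12 and is known as a receptor of flaviviruses and an amplifier of myeloid inflammation. It had 42.7, 36.7 and 56.3 FPKM in LPS+EtOH, 6.62, 6.25 and 5.86 in LPS+CPZ, and 29.5, 23.3 and 36.2 in LPS. The 3 groups did not overlap, with LPS+CPZ lowest and LPS+EtOH highest. The log2 change was 0.59 ± 0.18 for LPS+EtOH against LPS (limma adjusted p = 0.0111), -2.06 ± 0.18 for LPS+CPZ against LPS (limma adjusted p = 5.02e-06) and -2.65 ± 0.18 for LPS+CPZ against LPS+EtOH (limma adjusted p = 1.17e-06). The rise with EtOH was lost when the globin genes were left out of the scaling (0.29, adjusted p = 0.233), and the differences of LPS+CPZ from LPS and from LPS+EtOH held under every alternative.

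Clec7a encodes Dectin-1, the receptor of fungal β-glucans, whose own tail carries the shortened form of the ITAM called a hemITAM. It had 172, 208 and 194 FPKM in LPS+EtOH, 156, 141 and 153 in LPS+CPZ, and 68.9, 54.6 and 43.0 in LPS. As for Clec4d, all libraries with EtOH or CPZ lay above the LPS libraries. The log2 change was 1.79 ± 0.17 for LPS+EtOH against LPS (limma adjusted p = 2.16e-06) and 1.44 ± 0.17 for LPS+CPZ against LPS (limma adjusted p = 2.90e-05). LPS+CPZ differed from LPS+EtOH by -0.35 ± 0.17 (limma adjusted p = 0.0775), and with median-ratio scaling this difference passed at -1.12.

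In mean FPKM both inhibitory receptors lay below all 5 activating receptors in each group. Clec4a2 encodes DCIR1, an ITIM receptor. Its values were 7.60, 9.80 and 12.3 FPKM in LPS+EtOH, 3.36, 4.19 and 3.89 in LPS+CPZ, and 3.89, 2.37 and 3.54 in LPS. The LPS+EtOH libraries lay above all others, and the LPS+CPZ and LPS libraries overlapped. The log2 change was 1.35 ± 0.18 for LPS+EtOH against LPS (limma adjusted p = 4.33e-05), 0.19 ± 0.18 for LPS+CPZ against LPS (limma adjusted p = 0.384) and -1.16 ± 0.18 for LPS+CPZ against LPS+EtOH (limma adjusted p = 0.000211). The value for LPS+CPZ against LPS was 0.53 with quantile scaling (adjusted p = 0.0193) and -0.061 with the globin genes left out. Clec4a2 has close paralogs beside it, and the sources used here do not say how fragments shared between them were assigned.

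Clec12a encodes MICL, an ITIM receptor that senses uric acid crystals. It had 6.67, 9.72 and 9.74 FPKM in LPS+EtOH, 0.867, 0.848 and 1.02 in LPS+CPZ, and 4.33, 2.11 and 2.38 in LPS. The groups did not overlap. Clec12a was higher in LPS+EtOH than in LPS by 1.33 ± 0.20 (limma adjusted p = 0.000113), lower in LPS+CPZ than in LPS by a log2 change of -1.003 ± 0.20 (limma adjusted p = 0.00135), and differed between LPS+CPZ and LPS+EtOH by -2.33 ± 0.20 (limma adjusted p = 4.82e-06). At these levels the added 1 FPKM makes the log2 change smaller than the log2 of the ratio of the means. That ratio, before the log2, was 2.96 for LPS+EtOH over LPS. All 3 calls held under every alternative.

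Card9 was the least abundant of the 8 in LPS+EtOH and LPS. It had 2.57, 2.40 and 2.23 FPKM in LPS+EtOH, 2.29, 1.94 and 2.75 in LPS+CPZ, and 1.92, 1.51 and 0.814 in LPS. All libraries with EtOH or CPZ lay above the LPS libraries, of which replicate 3 was lowest. The log2 change was 0.52 ± 0.17 for LPS+EtOH (limma adjusted p = 0.0145) and 0.48 ± 0.17 for LPS+CPZ (limma adjusted p = 0.0260), each against LPS, and -0.04 ± 0.17 for LPS+CPZ against LPS+EtOH. Without LPS replicate 3 neither passed, with 0.33 for LPS+EtOH (limma adjusted p = 0.0582) and 0.29 for LPS+CPZ (limma adjusted p = 0.104). The call for LPS+CPZ was also lost without LPS+CPZ replicate 1 (0.49) or 3 (0.39). With the globin genes left out neither passed (0.35 for LPS+EtOH and 0.31 for LPS+CPZ), and with TPM scaling that for LPS+CPZ did not (limma adjusted p = 0.0594). The difference of LPS+CPZ from LPS+EtOH was -0.61 with median-ratio and -0.64 with quantile scaling, both called. An RNA on the opposite strand, Gm13562, overlaps exons of Card9 and averaged 0.495 FPKM, and whether strand was used in counting is not given in the sources used here.

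A ratio between genes of the same library is not changed by a factor that scales the whole library, though quantile scaling is not of that kind; the pairs were chosen after their values were seen, and they are given without a test. The ratio of Clec4d to Clec4e, which lie side by side on chromosome 6, was 7.89, 6.79 and 10.2 in LPS+EtOH, 8.27, 12.6 and 14.8 in LPS+CPZ, and 3.12, 4.33 and 2.79 in LPS. All libraries with EtOH or CPZ lay above the LPS libraries. The ratio of Clec7a to Clec4e averaged 0.823 ± 0.148 in LPS+EtOH, 1.23 ± 0.113 in LPS+CPZ and 0.326 ± 0.0771 in LPS. That of Clec4d to Clec7a, both higher in LPS+EtOH and in LPS+CPZ than in LPS, averaged 10.1 ± 1.79 in LPS+EtOH, 9.55 ± 1.89 in LPS+CPZ and 10.5 ± 0.549 in LPS, with overlapping libraries. Among the inhibitory receptors the ratio of Clec12a to Clec4a2 averaged 0.888 ± 0.0992 in LPS+EtOH, 0.241 ± 0.0332 in LPS+CPZ and 0.892 ± 0.221 in LPS, so that LPS+CPZ stood below the others without overlap.

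**Figure D4:**
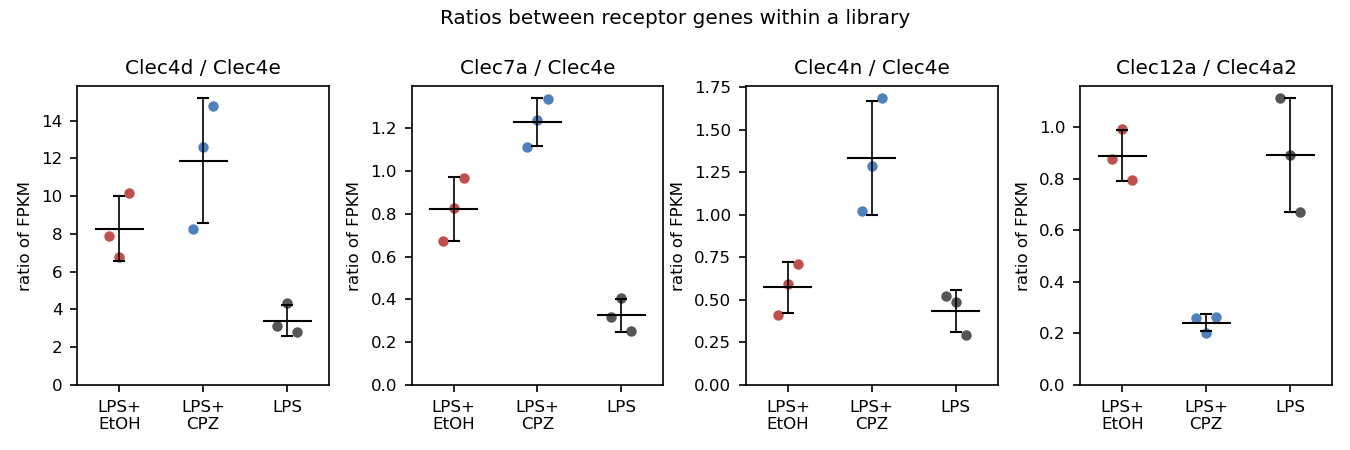
Ratios of FPKM between receptor genes within each library, on linear axes starting at 0, with the group mean and SD (n = 3). The ratios to Clec4e have their highest mean in LPS+CPZ (11.9 for Clec4d, 1.23 for Clec7a and 1.33 for Clec4n), and Clec12a over Clec4a2 is 0.241 there, against 0.888 in LPS+EtOH and 0.892 in LPS.

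The partner chains and signalling proteins of these receptors were taken from a list of 21 genes, of which 20 were tested. In LPS+EtOH against LPS 10 were higher and 6 lower, and in LPS+CPZ against LPS 7 were higher and 9 lower. Nfatc2, counted as lower in both, averaged 0.114 ± 0.0523 FPKM in LPS+EtOH, 0.407 ± 0.118 in LPS+CPZ and 1.39 ± 0.305 in LPS. Nfatc2 would not have passed the filter without the LPS libraries, so its lower calls are partly set by the filter. Of all tested genes 19.0% were called higher and 64.6% lower with EtOH, and 20.7% and 48.4% with CPZ. The median log2 changes of the 20 genes were 0.37 and -0.11, against -0.82 and -0.33 over all tested genes. Between LPS+CPZ and LPS+EtOH 8 of the 20 were higher and 9 lower, where 61.4% of all tested genes were higher and 15.2% lower. The median log2 change there was 0.0044 for the 20 genes, against 0.55 over all tested genes. With median-ratio scaling the split of LPS+CPZ against LPS+EtOH moved to 3 higher and 12 lower. Under that scaling the splits against LPS were 14 higher and 4 lower for LPS+EtOH, and 9 higher and 7 lower for LPS+CPZ. The shares over all tested genes were then 37.8% and 42.1% for LPS+EtOH, 27.6% and 34.1% for LPS+CPZ, and 35.6% and 31.5% for LPS+CPZ against LPS+EtOH.

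The ITAM-bearing partner chains rose in both. Fcer1g averaged 1009 ± 17.7 FPKM in LPS+EtOH, 525 ± 61.5 in LPS+CPZ and 235 ± 37.7 in LPS, with log2 changes against LPS of 2.11 and 1.17 (limma adjusted p = 3.84e-07 and 6.74e-05). Tyrobp, the partner of MDL-1, averaged 1018 ± 96.3 FPKM in LPS+EtOH, 328 ± 17.6 in LPS+CPZ and 186 ± 33.6 in LPS, with log2 changes against LPS of 2.46 and 0.83 (limma adjusted p = 1.65e-07 and 0.000643). Tyrobp thus rose with CPZ, where Clec5a fell. Fgr, a kinase of the Src family, differed between LPS+CPZ and LPS+EtOH by -2.36 on the log2 scale (limma adjusted p = 2.74e-06). It averaged 183 ± 18.8 FPKM in LPS+EtOH, 35.3 ± 7.81 in LPS+CPZ and 94.1 ± 20.5 in LPS. Fgr rose with EtOH and fell with CPZ against LPS, as Clec5a and Clec12a did.

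Downstream, the directions were mixed. Syk, Bcl10 and Malt1 fall outside the rule for named genes and were added after their values were seen, as the direct partners of the pathway. Syk averaged 107 ± 5.78 FPKM in LPS+EtOH, 104 ± 13.8 in LPS+CPZ and 88.4 ± 9.47 in LPS, and passed the test in none of the 3 comparisons as deposited (limma adjusted p at least 0.0739). With median-ratio scaling it passed in all 3, at 1.37 for LPS+EtOH against LPS, 0.55 for LPS+CPZ against LPS and -0.82 for LPS+CPZ against LPS+EtOH. Bcl10 was higher in LPS+EtOH than in LPS by 0.65 (limma adjusted p = 0.000372) and had a log2 change of -0.28 in LPS+CPZ (limma adjusted p = 0.0591). Malt1, the protease of the complex, averaged 6.39 ± 0.948 FPKM in LPS+EtOH, 6.90 ± 2.39 in LPS+CPZ and 19.5 ± 3.14 in LPS, and fell in both against LPS, though for LPS+EtOH not with median-ratio scaling (adjusted p = 0.0590). Of the IκB kinase subunits, Ikbkb averaged 0.981 ± 0.0945 FPKM in LPS+EtOH, 1.93 ± 0.313 in LPS+CPZ and 8.44 ± 0.713 in LPS, while Ikbkg averaged 15.5 ± 5.07 FPKM in LPS+EtOH, 57.3 ± 10.3 in LPS+CPZ and 9.02 ± 0.764 in LPS. Nfatc1, a transcription factor under calcium signals, had log2 changes of -2.92 with EtOH and -2.30 with CPZ, and Plcg2, the phospholipase upstream of it, of -1.69 with EtOH and -0.90 with CPZ, all called. The exchange factor Vav1 rose in both, by 1.51 with EtOH and 0.96 with CPZ on the log2 scale. Vav3 rose by 1.71 with CPZ and had a log2 change of 0.38 with EtOH (limma adjusted p = 0.107; 1.35 and called with median-ratio scaling). The kinase gene Src was higher in LPS+CPZ than in LPS+EtOH by 0.63, at 0.478 ± 0.0397 FPKM in LPS+EtOH, 1.29 ± 0.132 in LPS+CPZ and 1.22 ± 0.181 in LPS, a call lost with quantile scaling (0.25).

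**Figure D5:**
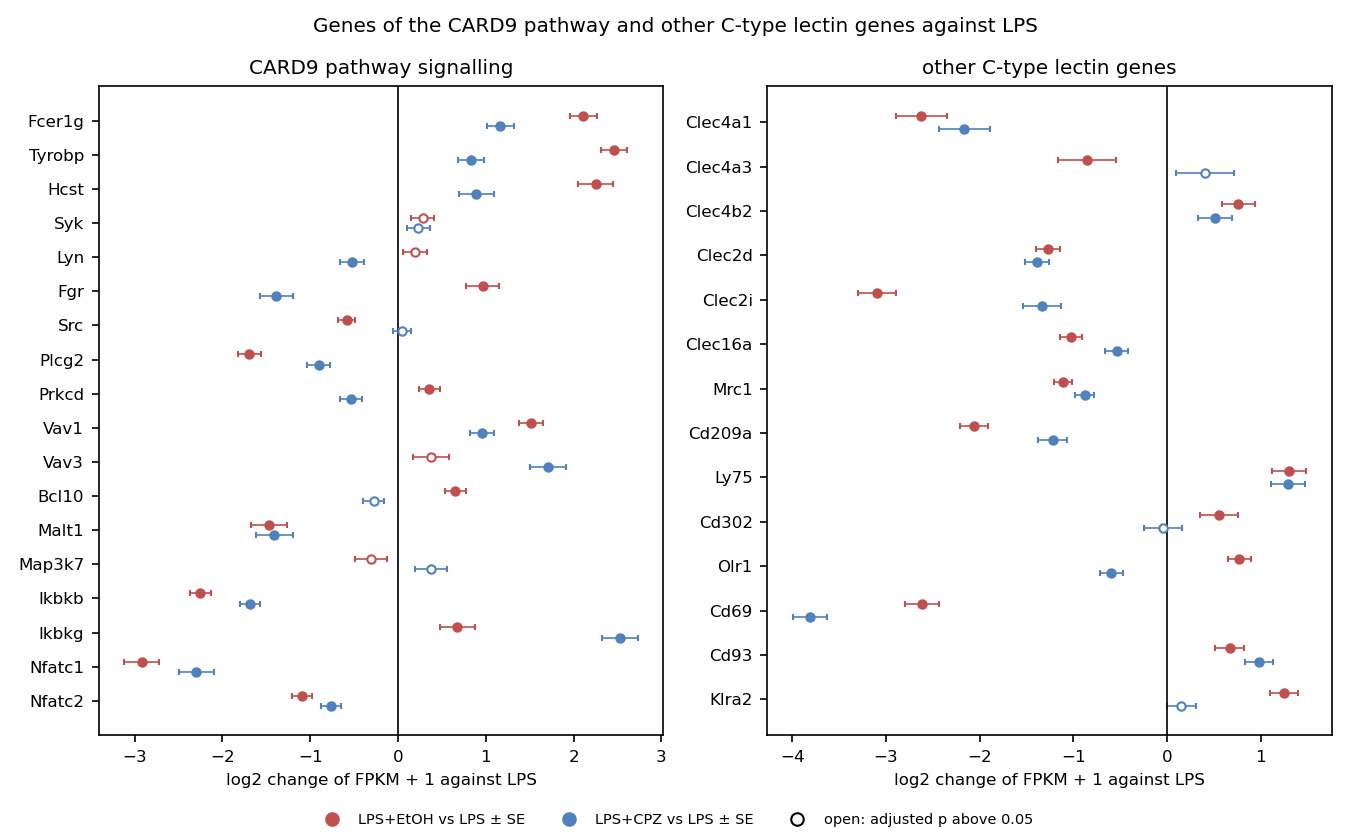
Log2 change against LPS, with 1 point per gene for LPS+EtOH and 1 for LPS+CPZ, of 18 of the 20 tested genes of the CARD9 pathway and of the 14 other tested C-type lectin genes; filled points passed the test, and bars are SE. In the pathway Tyrobp (2.46) lies highest for LPS+EtOH and Ikbkg (2.53) for LPS+CPZ, and Nfatc1 lies lowest for both.

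Negative regulators of the receptors were listed as 9 genes, and 8 were tested. With EtOH 1 was higher and 6 were lower than in LPS (3 and 4 with median-ratio scaling), and with CPZ 0 were higher by limma, also at an unadjusted p of 0.05, and 7 were lower (0 and 5). Of all tested genes 19.0% were higher and 64.6% lower with EtOH (37.8% and 42.1% with median-ratio scaling), and 20.7% and 48.4% with CPZ (27.6% and 34.1%). The median log2 changes of the tested regulators were -1.51 and -0.92, against -0.82 and -0.33 over all tested genes. The phosphatase gene Ptpn6, whose product SHP-1 docks on the ITIM of DCIR1 and MICL, averaged 143 ± 21.7 FPKM in LPS+EtOH, 18.9 ± 4.60 in LPS+CPZ and 131 ± 5.33 in LPS. Its log2 change was -2.75 with CPZ (limma adjusted p = 4.80e-07) and 0.12 with EtOH (limma adjusted p = 0.533). With median-ratio scaling the value with EtOH was 1.21 and passed (adjusted p = 0.000222). Cblb, a ubiquitin ligase that marks Dectin receptors for degradation, fell in both, at 0.610 ± 0.154 FPKM in LPS+EtOH, 2.52 ± 0.487 in LPS+CPZ and 9.59 ± 0.510 in LPS. Rubcn fell in both, with log2 changes of -2.22 with EtOH and -1.13 with CPZ. Ptpn11 also fell in both, with -1.25 and -1.13, though with EtOH not under median-ratio scaling. Dok1 fell with EtOH, with -2.35, and had a log2 change of -0.23 with CPZ (limma adjusted p = 0.254). The adaptor gene Dok3 was the 1 that rose with EtOH, at 84.6 ± 11.7 FPKM in LPS+EtOH, 23.8 ± 1.90 in LPS+CPZ and 39.4 ± 2.54 in LPS.

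Genes known to be induced through these receptors, many of which LPS also induces, were listed as 18, of which 17 were tested. With EtOH 5 were higher and 8 lower than in LPS (7 and 6 with median-ratio scaling), and with CPZ 3 were higher and 12 lower under both scalings. The shares over all tested genes were 19.0% higher and 64.6% lower with EtOH (37.8% and 42.1% with median-ratio scaling), and 20.7% higher and 48.4% lower with CPZ (27.6% and 34.1%). Between LPS+CPZ and LPS+EtOH 8 of the 17 were higher and 7 lower (4 and 9 with median-ratio scaling), where 61.4% of all tested genes were higher and 15.2% lower (35.6% and 31.5%). The median log2 changes of the 17 were -0.65 for LPS+EtOH against LPS, -2.28 for LPS+CPZ against LPS and -0.30 for LPS+CPZ against LPS+EtOH, where the medians over all tested genes were -0.82, -0.33 and 0.55. Nos2, the inducible nitric oxide synthase, rose in both, at 6.23 ± 0.822 FPKM in LPS+EtOH, 27.4 ± 4.50 in LPS+CPZ and 3.66 ± 0.497 in LPS. The neutrophil-attracting chemokine gene Cxcl2 rose by 0.79 with EtOH, a call lost with quantile scaling and without the globin genes, and by 1.33 with CPZ on the log2 scale. Il10, an anti-inflammatory cytokine, averaged 262 ± 39.4 FPKM in LPS+EtOH, 559 ± 38.2 in LPS+CPZ and 104 ± 49.3 in LPS, and rose in both against LPS. Csf2, which encodes GM-CSF, averaged 0.502 ± 0.282 FPKM in LPS+EtOH, 1.11 ± 0.429 in LPS+CPZ and 36.3 ± 7.06 in LPS, and would not have passed the filter without the LPS libraries. Egr3, an early transcription factor gene, averaged 1.32 ± 0.159 FPKM in LPS+EtOH, 0.903 ± 0.321 in LPS+CPZ and 29.4 ± 6.26 in LPS. Both fell in both groups, while Nr4a1 fell with CPZ (-3.35 on the log2 scale) and had a log2 change of 0.21 with EtOH (limma adjusted p = 0.337). That EtOH value was 1.30 and called with median-ratio scaling (adjusted p = 0.000219), and turned to -0.29 with quantile scaling. Ptgs2 encodes cyclooxygenase 2, and Il12b a subunit of the interleukin 12 family. Both were higher in LPS+CPZ than in LPS+EtOH, by 1.68 and 2.61 on the log2 scale. Neither mean in LPS+CPZ lay above that in LPS. Ptgs2 averaged 137 ± 5.02 FPKM in LPS+EtOH, 441 ± 13.3 in LPS+CPZ and 822 ± 186 in LPS. Il12b averaged 0.157 ± 0.0317 FPKM in LPS+EtOH, 6.22 ± 1.65 in LPS+CPZ and 7.50 ± 2.02 in LPS. Il1b and the inflammasome gene Nlrp3 had log2 changes of -2.18 and -1.26 for LPS+CPZ against LPS+EtOH. All 4 differences between LPS+CPZ and LPS+EtOH were called.

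Other genes named for, or known to carry, a C-type lectin domain were called in both directions. Of 34 such genes 14 were tested, and with EtOH 6 were higher and 8 lower than in LPS (6 and 6 with median-ratio scaling), while with CPZ 3 were higher and 8 lower (4 and 7). Between LPS+CPZ and LPS+EtOH 4 were higher and 4 lower (2 and 7). For all tested genes the shares were 19.0% higher and 64.6% lower with EtOH, and 20.7% higher and 48.4% lower with CPZ, and 61.4% higher and 15.2% lower between LPS+CPZ and LPS+EtOH. With median-ratio scaling these shares were 37.8% and 42.1%, 27.6% and 34.1%, and 35.6% and 31.5%. The median log2 changes of the 14 were -0.94, -0.57 and 0.11 in these comparisons, against -0.82, -0.33 and 0.55 over all tested genes. Ly75, the endocytic receptor DEC-205, rose in both, at 20.3 ± 2.76 FPKM in LPS+EtOH, 20.5 ± 5.28 in LPS+CPZ and 7.60 ± 0.904 in LPS. Klra2 and the scavenger receptor gene Olr1 rose with EtOH by 1.25 and 0.77 on the log2 scale, and had log2 changes with CPZ of 0.15 (limma adjusted p = 0.386; 0.46 and called with median-ratio scaling, -0.15 without the globin genes) and -0.59 (limma adjusted p = 0.00137; not called with median-ratio scaling). Cd93 rose in both, by 0.67 with EtOH and 0.98 with CPZ, as did Clec4b2, by 0.76 and 0.51, the CPZ call of Clec4b2 being lost without the globin genes. Cd69, an early activation antigen of lymphocytes, averaged 7.43 ± 0.287 FPKM in LPS+EtOH, 2.73 ± 0.764 in LPS+CPZ and 51.4 ± 9.88 in LPS, and fell in both against LPS. Clec2i, Cd209a and Clec2d fell in both: with EtOH the log2 changes were -3.10, -2.06 and -1.27, and with CPZ -1.34, -1.22 and -1.39, the EtOH call of Clec2d being lost with median-ratio scaling. Clec4a3 was higher in LPS+CPZ than in LPS+EtOH by 1.26, a call lost with median-ratio and quantile scaling. Mrc1, the macrophage mannose receptor, averaged 0.0132 ± 0.0183 FPKM in LPS+EtOH, 0.193 ± 0.0812 in LPS+CPZ and 1.197 ± 0.234 in LPS. Clec16a averaged 0.425 ± 0.160 FPKM in LPS+EtOH, 0.988 ± 0.0390 in LPS+CPZ and 1.90 ± 0.359 in LPS. Mrc1, Cd209a and Clec16a would not have passed the filter without the LPS libraries, where each was highest. Their lower calls, which enter the counts above, are thus partly set by the filter. Clec4a1, a paralog of Clec4a2 named here after its values were seen, averaged 5.05 ± 2.29 FPKM in LPS+EtOH, 7.01 ± 1.20 in LPS+CPZ and 35.8 ± 12.02 in LPS, opposite to Clec4a2 in LPS+EtOH.

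For each gene, the other genes with the most similar profile over the 9 libraries were found by the root mean square difference of mean-centred log2(FPKM + 1), as a description over libraries that share their groups. Clec7a was closest to Card19 (0.0949) and Txn1 (0.137), and Clec4d to Txn1 (0.107) and Atp6v1g1 (0.150), so that Txn1, the thioredoxin gene, was among the nearest of both. Clec5a was closest to Pilrb2 (0.128) and Pilrb1 (0.216), which encode paired immunoglobulin-like receptors and are near-identical copies whose fragments may be shared. Clec4e was closest to Pak1 (0.155) and the pseudogene Slc39a1-ps (0.157), Clec4n to the chemokine gene Cxcl2 (0.231) and to Mafg (0.241), and Clec12a to the glucose transporter gene Slc2a6 (0.182) and to Vasp (0.203). Clec4a2 was closest to Mir6978 (0.165) and Ccng2 (0.166), and Card9 to Cabyr (0.146) and Flii (0.149).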

How the data were processed

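Strand-specific TruSeq libraries of pooled RNA were sequenced on a NovaSeq 6000, per the labels' protocols. The values are FPKM per gene as deposited by the authors; FastQC 0.11.2, STAR and StringTie are named in the submitters' processing notes, which give the build hg38, whereas 55154 of 55335 gene IDs are mouse IDs of GENCODE M21. No coordinates are therefore taken from the files, and promoters come from RefSeq (GRCm38.p6). All value columns were matched to samples by name.

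The 11721 genes that reached 1 FPKM in 3 or more libraries were compared as log2(FPKM + 1) by limma 3.58.1 (R 4.3.3; functions lmFit and eBayes, with a mean-variance trend; group as the only term, all 9 libraries, 6 residual degrees of freedom, two-sided), with Benjamini-Hochberg adjustment over all tested genes and a threshold of 0.05. The fit was tested on simulated data. Read counts could not be recovered from FPKM (after dividing by the commonest step, 25.4 to 29.1% of low values came within 0.05 of a whole number), so depth is an estimate and no counting error is given. Correlations of log2 values were 0.975 to 0.989 within groups and 0.736 to 0.885 between groups, and no libraries were identical.

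The genes and lists were chosen with earlier results of these data known. All 8 genes are named, and of each other list up to 3 genes per direction and comparison with the smallest adjusted p, as well as the 2 nearest genes of each of the 8. S100a8, Ly6g, Ms4a1, Adgre1 and Csf1r are the named cell type markers. Elane, Mpo, Ngp, Camp, Ltf, S100a9, F10, Timd4, Alox15 and Vsig4 were added after their values were seen, as were Nfatc2 and Clec16a of the other lists. Ms4a1, a B cell gene, averaged 1.22 ± 0.302 FPKM in LPS+EtOH, 7.65 ± 1.62 in LPS+CPZ and 54.0 ± 12.8 in LPS (SD, n = 3 each). Of the CARD9 pathway list, 2 genes enter the counts and are not reported singly here. Alternatives were a pseudocount of 0.1 or 5, a filter at 5 FPKM or none beyond a value above 0, scaling to TPM, by median ratios, by quantiles or without the 4 adult globin genes, eBayes with robust fitting or no trend, a fit of the compared groups alone, a replicate block, and each library left out in turn.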

Additional observations from a re-analysis of the deposited data

How the results depend on the processing

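Over 21 alternatives (20 for Card9, which a filter of 5 FPKM removes), the results of the 8 genes kept direction and side of the threshold in 455 cases, no longer passed in 29, passed anew in 14 and turned sign in 3. Calls that held throughout were 5 of 8 for LPS+EtOH against LPS (Clec4d, Clec4n, Clec7a, Clec4a2 and Clec12a), 5 of 7 for LPS+CPZ against LPS (Clec4d, Clec4n, Clec7a, Clec5a and Clec12a) and 4 of 4 for LPS+CPZ against LPS+EtOH. Clec4e was lost in 11 of 21 alternatives for LPS+EtOH against LPS (0.06 to 1.55) and in 9 of 21 for LPS+CPZ against LPS (-0.79 to -0.16), and Card9 in 2 and 6 of 20. Between LPS+CPZ and LPS+EtOH, Clec4d passed in 7 of 21 and Clec7a in 4 of 21. The sign turned for Clec4n in LPS+CPZ against LPS+EtOH with median-ratio scaling (-0.49), for Clec4a2 in LPS+CPZ against LPS without the globin genes (-0.061) and for Card9 in LPS+CPZ against LPS+EtOH without LPS+CPZ replicate 2 (0.048; -0.128 to 0.048 when each library was left out in turn). Median-ratio scaling called 7 of the 8 genes lower in LPS+CPZ than in LPS+EtOH, and leaving out the globin genes called 5 higher in LPS+EtOH than in LPS; the cause was not tested. A filter of 5 FPKM, which tests fewer genes, called 5345, 4741 and 4993 genes in LPS+EtOH against LPS, LPS+CPZ against LPS and LPS+CPZ against LPS+EtOH, where the values used called 9796, 8106 and 8980. Leaving out 1 library at a time gave 9478 to 9839, 7460 to 8099 and 8358 to 9050 called genes, with 6 to 8 of the 8 genes higher in the first comparison, 3 to 4 higher and 2 to 3 lower in the second, and 4 to 6 lower in the third. Same-numbered libraries of different groups had correlated deviations of -0.00645 to 0.260, not all above 0.1, and libraries did not all correlate best with their own number, so the number was not taken to pair them. With the replicate block 9871, 8156 and 9086 genes were called, with 8 higher, 4 higher and 3 lower, and 4 lower among the 8. Depth, known only as an estimate, limits most the genes near 1 FPKM, Clec12a in LPS+CPZ and Card9.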
